A study of Mus musculus with 3 samples.

Results

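Sorted cell populations of the mouse upper small intestine were compared gene by gene: cells that express the hormone GIP (GIP-GFP) and the whole progeny of Neurogenin 3-expressing progenitors (Ngn3-TOMATO). The members were the 13753 genes, of 24312 with a value in the series, that stood at 1 or more in at least 1 of the pair of libraries, on a scale of FPKM (reads per length of transcript and library) divided by a common number and called scaled FPKM here. Both libraries came from C57BL/6 mice and were each 1 pool of RNA from several sorts, so the differences have no replicate check and no test is given. Both were sorted from the villous fraction of the epithelium. GIP-GFP cells carried a green reporter of GIP, and the sources used here do not give its construct or the sex of those mice, nor the age and number of mice for either library. Ngn3-TOMATO cells came from male mice in which Cre driven by Neurogenin 3 removes a stop cassette at ROSA26 and so turns on tomato in every later descendant, and they were sorted as negative for CD45, a marker of blood cells. No CD45 gate is stated for the GIP-GFP sort. The Ngn3-negative library held the tomato-negative epithelial cells of the latter mice, and its levels are given beside some results. GIP cells are themselves part of the Neurogenin 3 lineage, so the ratios compare an enriched cell type with a mixture that contains it.

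GIP is an incretin, a gut hormone that raises insulin release when glucose is high. It is made by K cells, which lie mainly in the duodenum and upper jejunum and release it after fat and sugar enter the lumen. Neurogenin 3 is the transcription factor that commits a crypt progenitor to the enteroendocrine fate, which gives rise to cells for cholecystokinin, secretin, somatostatin, ghrelin, proglucagon peptides, neurotensin and serotonin, and lineage marking from it is known to reach some goblet and Paneth cells as well. The serotonin-making cells are called enterochromaffin cells.

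The upstream sequences of 4 genes are shown because these genes stand at opposite ends of the comparison: Gip and the cannabinoid receptor gene Cnr1 far higher in GIP-GFP, the lectin gene Reg4 and the serotonin synthesis gene Tph1 far lower. Each line holds the 250 bases before the RefSeq gene start on GRCm38.p6, 5′ to 3′ on the gene's strand. Capitals mark AGATAA, the motif of GATA factors, and TATAAA or its near form TATAAG, the TATA box motifs, each searched on both strands.
Gip: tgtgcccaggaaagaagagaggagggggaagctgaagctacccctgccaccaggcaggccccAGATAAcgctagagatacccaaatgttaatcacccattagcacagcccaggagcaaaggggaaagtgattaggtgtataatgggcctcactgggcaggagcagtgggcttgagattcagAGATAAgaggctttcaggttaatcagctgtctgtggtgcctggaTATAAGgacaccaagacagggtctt
Cnr1: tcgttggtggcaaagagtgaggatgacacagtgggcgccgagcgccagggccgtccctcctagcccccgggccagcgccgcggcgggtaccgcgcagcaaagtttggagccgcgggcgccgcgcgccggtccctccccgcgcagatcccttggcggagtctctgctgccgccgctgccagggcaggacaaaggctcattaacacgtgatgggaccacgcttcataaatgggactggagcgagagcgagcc
Reg4: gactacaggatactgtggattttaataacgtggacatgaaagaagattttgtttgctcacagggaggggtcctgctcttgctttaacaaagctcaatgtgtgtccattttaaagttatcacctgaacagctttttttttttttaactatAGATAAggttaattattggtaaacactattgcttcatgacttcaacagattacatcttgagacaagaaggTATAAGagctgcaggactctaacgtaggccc
Tph1: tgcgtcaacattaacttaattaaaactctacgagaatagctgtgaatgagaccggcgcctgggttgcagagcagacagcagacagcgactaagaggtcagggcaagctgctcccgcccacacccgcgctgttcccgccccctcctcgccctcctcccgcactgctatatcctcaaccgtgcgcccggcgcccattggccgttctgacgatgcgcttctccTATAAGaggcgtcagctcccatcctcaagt
These windows are chr11:96024295-96024544 (plus strand) for Gip, chr4:33924394-33924643 (plus strand) for Cnr1, chr3:98221906-98222155 (plus strand) for Reg4 and chr7:46667378-46667627 (minus strand) for Tph1. Counting back from the gene start, AGATAA began at -188 and -69 in Gip and at -101 in Reg4. TATAAG began at -25 in Gip, -31 in Reg4 and -30 in Tph1, and the Cnr1 window held none of these motifs. Windows of the same length were found for 10732 of the compared genes. AGATAA was in 5.96% of all of them, in 6.85% of the 219 whose gene was at least 4-fold higher in GIP-GFP and in 8.63% of the 313 whose gene was at least 4-fold lower. The TATA motifs were in 9.88%, 11.4% and 17.9% of these sets in the same order. The E-box CATCTG, a NEUROD-type motif searched together with its reverse complement, was in 9.98%, 12.8% and 16.9%, and the RFX motif GTTGCC in 10.4%, 13.7% and 7.99%. Of the other 5 motifs searched, the CDX motif TTTATG was in 6.15%, 7.31% and 10.5%, and the homeobox motif TTAATTA in 1.53%, 0.913% and 2.88%. The A-box CTAATG was in 3.95%, 5.48% and 4.47%, and the NRSE core GGACAGC, a motif of the neuronal repressor REST, in 5.94%, 5.02% and 3.83%. The cyclic AMP response motif TGACGT was in 1084, 22 and 17 of the windows, which is 10.1%, 10% and 5.43%. The sets also differed in base composition, with a median GC content of 59.6%, 58.8% and 56.4% and a median of 15, 11 and 7 CpG, and the part of composition in these shares was not tested. A match is a run of letters and not evidence of binding.

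Most genes differed little between the GIP-GFP and Ngn3-TOMATO libraries. Of the 13753 genes, 11436 lay within 2-fold and the median log2 ratio of GIP-GFP to Ngn3-TOMATO was 0.08. Ratios here are taken after adding 1 scaled FPKM to each value, which understates the difference of low genes, and folds are on that scale. At least 2-fold higher in GIP-GFP were 1113 genes (8.09%) and at least 2-fold lower 1204 (8.75%). Every list count below is to be read beside these shares of all genes, and a count near them does not set a list apart. At least 4-fold higher were 289 (2.10%) and at least 4-fold lower 442 (3.21%), and at 16-fold or more the numbers were 30 and 84. The far end was thus more populated among the genes lower in GIP-GFP. The 4-fold higher genes together held 25.5% of the summed gene values of GIP-GFP, most of it Gip, and the 4-fold lower genes held 26.3% of those of Ngn3-TOMATO. Of the 4-fold higher genes, 61.9% were below 1 scaled FPKM in Ngn3-negative, against 33.3% of the 4-fold lower genes and 14.2% of all genes compared. Counts past a fold include genes listed at 0 in 1 library, 66 of the 289 and 81 of the 442, and for these no fold is given below.

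**Figure D1:**
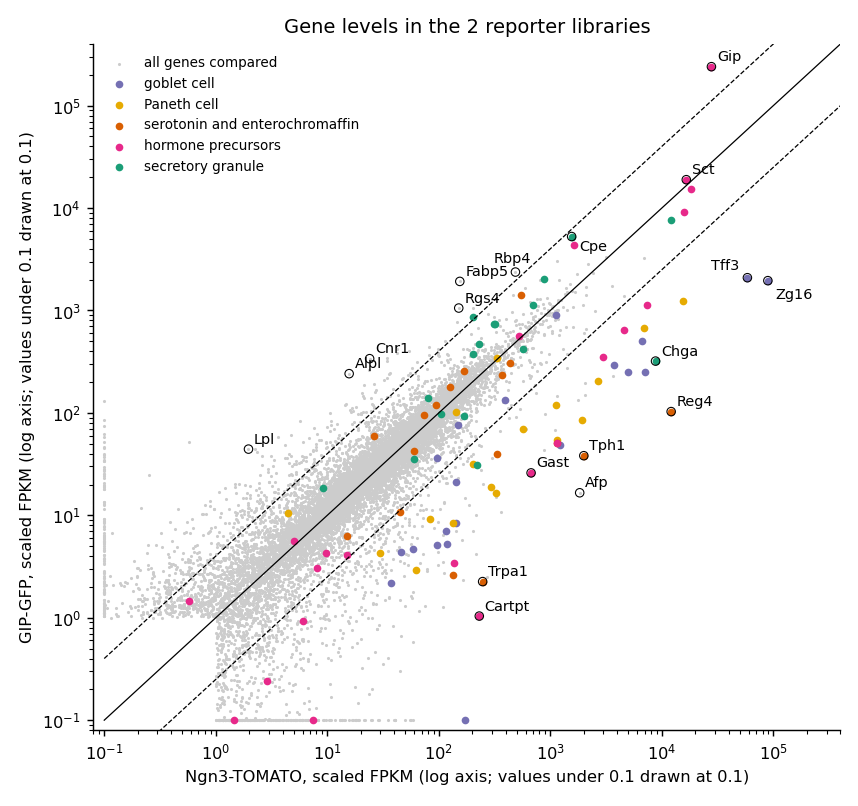
Level of each compared gene in GIP-GFP (vertical axis) against Ngn3-TOMATO (horizontal axis), both in scaled FPKM on log axes, 1 pooled library each. Colours mark 5 gene lists, the solid line marks equal levels and the broken lines a 4-fold ratio of the plotted values. Gip lies at the top right above the upper broken line, and goblet, Paneth and enterochromaffin genes such as Zg16, Tff3 and Reg4 lie below the lower one.

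The labels were checked against defining genes. In GIP-GFP the most abundant gene was Gip, with 23.1% of the summed gene values, as the label states. In Ngn3-TOMATO, which GEO labels as enteroendocrine, the most abundant gene was Zg16, a goblet cell lectin, with 8.40%, followed by the goblet trefoil peptide gene Tff3 with 5.51% and then Gip with 2.62%. The series' design text places goblet and Paneth cells in the tomato-negative population, so the levels of their genes in Ngn3-TOMATO go against its label as purely enteroendocrine. In bulk RNA, fewer cells of a type and less RNA per cell cannot be told apart. Coverage summed to 592.1 Mb in GIP-GFP and 1380 Mb in Ngn3-TOMATO. A gene at 100 or more had a median 95% counting error of 4.72% in GIP-GFP and 3.02% in Ngn3-TOMATO, and a gene at 1 to 10 one of 27.5% and 17.5%. Intervals in parentheses are 95% counting intervals from the deposited limits and do not include differences between mice or sorts. The Y-linked genes Eif2s3y, Ddx3y, Uty and Kdm5d were within 2-fold of each other between the libraries, for example Ddx3y at 36.2 in GIP-GFP against 34.7 in Ngn3-TOMATO, with 31.3 in Ngn3-negative.

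Gip (transcript uc007lba.1, mm10 chromosome 11, 96024545 to 96030828, plus strand) stood at 240103 scaled FPKM in GIP-GFP against 27866 in Ngn3-TOMATO, with 726 in Ngn3-negative. The GIP-GFP level was 8.62 times that of Ngn3-TOMATO, a log2 ratio of 3.11 (3.10 to 3.11). Further on, a gene's log2 ratio stands in parentheses, followed where given by its interval. The sort was made on this gene, so the ratio is a mark on the scale and not a finding. Gip made up 82.6% of the summed level of the hormone precursors in GIP-GFP and 28.5% in Ngn3-TOMATO. Counting Gip itself, 65 genes (0.473%) had a log2 ratio at or above that of Gip, of which 40 were listed at 0 in Ngn3-TOMATO and 25, Gip included, had a counting interval above 0. The genes with a log2 ratio nearest to that of Gip were B3gntl1, which was listed at 0 in Ngn3-TOMATO, and the trophinin gene Tro (3.11) on the upper side, and 4930503B20Rik (3.09) and Tmem132b (3.09) on the lower. All of these stood at 20.1 or less in GIP-GFP, and the match is over 1 pair of libraries only.

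The other hormone precursors were mostly lower in GIP-GFP. Of 22 precursors compared, 2 were at least 2-fold higher, 14 at least 2-fold lower and 6 in between, with a median log2 ratio of -1.46. The precursor of peptide YY, Pyy, a hormone that curbs appetite, was the other one higher, at 4354 in GIP-GFP and 1622 in Ngn3-TOMATO (1.42, 1.38 to 1.47). Secretin, which draws bicarbonate from the pancreas, was near equal: Sct stood at 18928 and 16579.5 (0.19, 0.17 to 0.21). The amylin precursor Iapp, at 562 and 524, and the somatostatin precursor Sst, at 15342 and 18330.2, were also within 2-fold. Cck, the cholecystokinin precursor, was at 9229 in GIP-GFP and 15889 in Ngn3-TOMATO (-0.78, -0.80 to -0.76). For these 4 hormones the libraries were within 2-fold of each other, although a pooled library cannot show whether the same cells held them.

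Farther below were the precursors of other endocrine cells. Ghrl, for ghrelin, was at 1138 in GIP-GFP and 7303 in Ngn3-TOMATO (-2.68, -2.75 to -2.61). Nts, for neurotensin, was at 642 and 4607 (-2.84, -2.88 to -2.80), and Gcg, for proglucagon, at 355 and 2975 (-3.06, -3.13 to -3.0). Tac1, the substance P precursor of enterochromaffin cells, was at 51.4 and 1153 (-4.46, -4.67 to -4.25). Gast, for gastrin, was at 26.0 and 673 and was listed at 0 in Ngn3-negative (-4.64, -5.06 to -4.22). The neuropeptide precursors Ucn3, at 3.45 and 136, and Cartpt, at 1.04 and 231, were the lowest by ratio, with log2 ratios of -4.95 (-5.34 to -4.55) and -6.83 (-7.65 to -6.00). Among the precursors of low level, Penk and Gal were listed at 0 in GIP-GFP, against 7.39 and 1.46 in Ngn3-TOMATO. Pyy and Gast were measured on transcripts under 500 bases, where the length correction is less certain.

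Genes of the secretory granule, in which peptide hormones are cut and stored, went both ways, with more of them higher in GIP-GFP. Above 0 were 10 log2 ratios and below 0 were 7. Of 17 compared, 6 were higher by 2-fold or more and 2 lower by as much, with a median of 0.80, against 0.08 for all genes. Scgn, for the calcium sensor secretagogin, stood at 868 in GIP-GFP and 201 in Ngn3-TOMATO (2.10, 2.05 to 2.16). Cpe, for the carboxypeptidase that trims cut prohormones, was at 5273 and 1554 (1.76, 1.74 to 1.78). The other 4 higher members were Ptprn2 (1.24), Scg5, a chaperone of the convertase PC2 (1.21), Scg2 (1.20) and Scg3 (1.05). Chga, for the granule protein chromogranin A, went the other way, at 321 in GIP-GFP against 8789 in Ngn3-TOMATO (-4.77, -4.82 to -4.73). Vgf was at 30.9 and 219.8 (-2.79, -2.94 to -2.64). The second chromogranin gene, Chgb, differed less, at 7626 and 12035 (-0.66, -0.67 to -0.65), so that the 2 chromogranins stood far apart in GIP-GFP and close in Ngn3-TOMATO. The convertase gene Pcsk1, whose enzyme cuts proGIP, was at 425 and 573 (-0.43), within 2-fold, and Pcsk2 at 18.5 and 9.17 (0.94). Ptprn, a granule membrane protein gene, was at 93.9 and 169.6 (-0.85), Cpd, for another carboxypeptidase, at 35.4 and 59.5 (-0.73), and Pcsk1n, for an inhibitor of the convertase, at 96.5 and 105 (-0.12).

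The machinery that fuses granules with the membrane differed in single members rather than as a list. Of 31 exocytosis genes, 4 were higher by 2-fold or more and 5 lower by as much, against 8.09% and 8.75% of all genes. The list median was 0.14, and -0.017 when only the most abundant transcript of each gene was used. The complexin genes, whose proteins clamp the SNARE complex, were both higher: Cplx2 at 364 in GIP-GFP and 120.0 in Ngn3-TOMATO (1.59, 1.55 to 1.63), and Cplx1 at 110.4 and 39.2 (1.47, 1.36 to 1.58). Snap25, a SNARE protein gene, was lower at 84.2 and 217 (-1.35, -1.44 to -1.27). The vesicle GTPases split: Rab3b was at 31.0 and 14.0, whereas Rab3c was at 0.577 and 58.2 (-5.23, -5.45 to -5.01) and Rab27b at 6.57 and 42.7 (-2.53, -2.67 to -2.38). Sv2c, at 37.8 and 18.1 in sum, was at a log2 ratio of 1.02 and at -0.017 by its most abundant transcript alone.

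Several enterochromaffin genes were among the lowest ratios of all. Reg4 (uc008qpq.1, chromosome 3, 98222156 to 98236748), a secreted lectin gene of these cells, stood at 103 in GIP-GFP against 12129.9 in Ngn3-TOMATO, with 181 in Ngn3-negative, the lowest log2 ratio of any gene with an interval, -6.87 (-6.98 to -6.75). Tph1 (uc009gyq.2, chromosome 7, 46647131 to 46667348), whose enzyme sets the pace of serotonin synthesis, stood at 38.2, 1998 and 29.8 in the same order (-5.67, -5.81 to -5.53). In GIP-GFP both were thus close to or below their levels in the tomato-negative cells. The irritant-gated channel gene Trpa1 was at 2.25 and 247 (-6.25, -6.50 to -6.01), and the transcription factor gene Lmx1a at 2.63 and 135 (-5.23, -5.50 to -4.96). Slc18a1, for the transporter that loads serotonin into vesicles, was at 39.4 and 331 (-3.04, -3.14 to -2.93). Of 17 members, 8 were at least 2-fold lower and 2 at least 2-fold higher, with a median of -0.65. Ddc, for the decarboxylase that makes serotonin and dopamine from their precursors, was among the higher, at 1401 and 551 (1.34, 1.30 to 1.39), and at 0.89 by its most abundant transcript. The serotonin uptake transporter gene Slc6a4 was the other, at 58.9 and 26.5, with 77.4 in Ngn3-negative. Th, for the first enzyme of catecholamine synthesis, stood at 235 in GIP-GFP and 52.6 in Ngn3-TOMATO (2.14, 2.04 to 2.24).

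Several transcription factors known from pancreatic islets were higher in GIP-GFP, and as many factors of endocrine development were lower. Isl1 stood at 769 in GIP-GFP against 147 in Ngn3-TOMATO, with 3.23 in Ngn3-negative, and the ratio (2.38, 2.33 to 2.43) was 1.44 by its most abundant transcript. Rfx6, a factor needed for islet and K cell development, was at 1061, 205 and 6.58 (2.37, 2.32 to 2.42). Pax6, at 500.5 and 113 (2.13, 2.02 to 2.25), overlaps an antisense gene, so their reads cannot be told apart. Pdx1, a factor known to bind the Gip promoter, was at 74.7 and 22.5 (1.69, 1.5 to 1.88), also with an overlapping transcript. St18 (1.43) and Insm1 (1.17) were also among the 7 genes at least 2-fold higher of 29 compared. Another 7 were at least 2-fold lower and the list median was 0.13. Besides Lmx1a these were Onecut3 (3.75 against 30.8), Glis3 (4.88 against 30.4), Mnx1 (3.34 against 18.9), Pax4 (21.8 against 60.9), Foxa1 (73.4 against 174) and Neurog3 itself. Neurog3 was at 4.45 in GIP-GFP against 23.9 in Ngn3-TOMATO, with 13.8 in Ngn3-negative (-2.19, -2.62 to -1.77). Neurod1, which acts just after it, was within 2-fold at 391 and 603, and Nkx2-2 at 202 and 117.

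Most factors that set intestinal identity were within 2-fold, and 4 were lower. Cdx1, an intestinal homeobox gene, was at 108 in GIP-GFP and 216 in Ngn3-TOMATO (-0.99, -1.09 to -0.88), just short of 2-fold, and at -1.07 under the median-ratio scaling. Cdx2, its close relative, was at 198 and 217 (-0.13, -0.20 to -0.06). Gata4 was at 109 and 87.6, Gata6 at 77.8 and 88.5, and Hnf4a at 267 and 364. Of 16 members none was at least 2-fold higher and 4 were lower, all past 4-fold. These were Atoh1, the switch to the secretory fate (-3.98, -4.30 to -3.66), Spdef, the goblet maturation factor (-3.87, -4.17 to -3.57), Gfi1 (-3.03, -3.56 to -2.50) and Klf4 (-2.89, -3.01 to -2.76). The Notch list, whose signal holds progenitors back from the secretory fate, had 4 of 16 members at least 2-fold lower and none at least 2-fold higher. Dlk1 was just short of 2-fold higher, at 19.5 in GIP-GFP against 9.38 in Ngn3-TOMATO (0.98, 0.82 to 1.14). The lower were the ligand genes Dll1 (19.5 against 58.2) and Dll4 (36.7 against 99.6) and the fringe genes Lfng (4.24 against 17.0) and Mfng (0.982 against 9.50).

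Some genes of glucose sensing were higher in GIP-GFP, among them those of a channel known from beta cells. The ATP-sensitive potassium channel closes when glucose metabolism raises ATP, and both genes of its islet form shared the direction. Abcc8, for the sulfonylurea receptor subunit, stood at 444 in GIP-GFP against 82.4 in Ngn3-TOMATO, with 1.89 in Ngn3-negative (2.41, 2.35 to 2.47). Kcnj11, for the pore subunit, was at 120.0, 25.7 and 1.13 (2.18, 2.06 to 2.30). Slc5a1, for the sodium-glucose transporter SGLT1, was at 495 and 236 (1.07, 1.03 to 1.10) and just under 2-fold (0.98) when libraries were scaled by the median ratio, and the facilitated transporter gene Slc2a2 was near equal at 32.2 and 34.7.

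The channel genes of the same list went both ways. The calcium channel genes Cacnb2 (2.32, 2.12 to 2.53) and Cacna1c (1.55, 1.35 to 1.75) were higher in GIP-GFP, and Cacna1d was at 12.9 and listed at 0 in the other 2 libraries. Cacna1d overlaps Chdh, and reads of overlapping genes cannot be told apart without strand. Lower were the sodium channel gene Scn3a (10.3 against 63.7), the potassium channel gene Kcnk16 (3.40 against 68.5), the cation channel gene Trpc4 (0.778 against 27.9) and Slc2a1 for the transporter GLUT1 (9.35 against 49.99). Of 31 members 8 were at least 2-fold higher and 8 lower, with a median of 0.07 that was below 0 under the median-ratio scaling.

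Several receptors for fat and amino acid products were higher in GIP-GFP and a few were lower. Gpr119, for a receptor of monoacylglycerols and related lipids, stood at 97.4 in GIP-GFP and 20.1 in Ngn3-TOMATO (2.22, 2.09 to 2.35). Ffar4, for the long-chain fatty acid receptor GPR120, was at 141 and 47.9 (1.54, 1.40 to 1.68), and Gpr142, for an aromatic amino acid receptor, at 40.0 and 6.95 (2.37, 2.03 to 2.70). Ffar1, for the long-chain receptor GPR40, was within 2-fold at 117 and 64.8 (0.84, 0.66 to 1.02). Lower were Ffar2, for a short-chain fatty acid receptor, at 6.43 and 109 (-3.89, -4.22 to -3.55), and Casr, for the calcium-sensing receptor, at 2.66 and 12.5 (-1.88, -2.21 to -1.55). Of 17 members, 5 were higher by 2-fold or more and 3 lower by as much, the last of these being Gnat3, a taste transducer gene also listed as a tuft cell gene, and the median was 0.31.

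Receptors for hormones and transmitters were more often lower, with a few far higher. Cnr1 (uc008sfw.1, chromosome 4, 33924632 to 33948831), for the cannabinoid receptor CB1, stood at 339 in GIP-GFP against 24.0 in Ngn3-TOMATO, with 0.700 in Ngn3-negative, so that its ratio (3.76, 3.70 to 3.83) exceeded that of Gip. Chrm4, for a muscarinic acetylcholine receptor, was at 141, 21.2 and 0.581 (2.68, 2.57 to 2.79), and Ptger3, for a prostaglandin E2 receptor, at 107, 16.1 and 0.491 (2.67, 2.50 to 2.83). All 3 receptors couple to inhibitory G proteins, but so do receptors of this list that were lower, such as those of Npy1r and Sstr1. Sstr3, a somatostatin receptor gene, was higher at 19.1 against 7.38, and Sstr1 lower at 85.4 against 195 (-1.18, -1.25 to -1.11). Receptors of incretins and neuropeptide Y were lower: Glp1r at 8.51 and 42.4 (-2.19, -2.53 to -1.86), Gipr at 3.94 and 11.1, and Npy1r at 0.984 and 23.3 (-3.62, -3.96 to -3.28). Ptger4, for a prostaglandin receptor that raises cyclic AMP, was at 8.05 and 54.6 (-2.62, -2.88 to -2.35). Of 27 receptors, 5 were at least 2-fold higher and 13 lower, with a median of -0.75.

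Several regulators of G protein and cyclic AMP signaling were well above the lineage level. Rgs4, for a protein that shortens signals of inhibitory and Gq proteins, stood at 1057 in GIP-GFP against 151 in Ngn3-TOMATO, with 3.36 in Ngn3-negative (2.80, 2.76 to 2.84). Rgs11 was at 244 and 36.6 (2.70, 2.57 to 2.84) and Rgs16 at 13.1 and 2.42 (2.04, 1.75 to 2.34). Rgs2 had the reverse pattern, at 15.1 and 326 (-4.35, -4.50 to -4.20). Sphkap, for an anchoring protein of cyclic AMP-dependent kinase, was at 323, 34.6 and 1.07 (3.18, 3.07 to 3.30), and Pkib, for an inhibitor of that kinase, at 71.5, 7.64 and 0.279 (3.07, 2.93 to 3.21). Adcy8, an adenylyl cyclase gene, was lower at 0.851 and 29.4 (-4.04, -4.32 to -3.76), and Adcy2 higher at 108 and 52.7. Over the 30 genes of the list 7 were at least 2-fold higher and 5 lower, with a median of 0.50.

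Of 6 fatty acid binding protein genes compared, 2 were at least 2-fold higher in GIP-GFP and 1 at least 2-fold lower, with a median of 0.39. The median was 2.01 with transcripts of 500 bases or more. Fabp1 and Fabp6 were measured on transcripts under 500 bases, where the length correction is less certain. Fabp5 (uc008opg.1, chromosome 3, 10012606 to 10016610), for an intracellular fatty acid carrier, stood at 1923 in GIP-GFP against 154 in Ngn3-TOMATO, with 5.53 in Ngn3-negative (3.63, 3.56 to 3.70). Fabp4, the adipocyte form, was at 44.4, 2.24 and 0.168 (3.81, 3.28 to 4.33). Fabp3, the heart form, was lower at 0.915, 6.56 and 0.330 (-1.98, -2.85 to -1.11), and Fabp6, the ileal bile acid carrier gene, was at 172, 181 and 814. Lpl, one of the 30 highest ratios and outside this list, encodes lipoprotein lipase, which frees fatty acids from circulating triglyceride, and was at 44.3, 1.97 and 0.0812 (3.93, 3.79 to 4.08). The enterocyte forms differed much less, Fabp1 at 2282 and 1749 and Fabp2 at 2870.4 and 2181, while both stood several times higher in Ngn3-negative, at 7663 and 11157. Scarb1, for the HDL and cholesterol receptor SR-BI, was at 422, 97.8 and 12.6 (2.10, 2.03 to 2.17). Mgll, for the lipase that splits monoacylglycerol and the endocannabinoid 2-AG, was lower at 13.1 and 111 (-2.98, -3.14 to -2.83). Of 34 lipid absorption genes only Scarb1 and Abca1 (1.26) were at least 2-fold higher, and Mgll and Apobec1 (-1.93) at least 2-fold lower. Over all genes compared, the shares were 8.09% higher and 8.75% lower.

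Of 6 genes for kinases and phosphatases of pyruvate dehydrogenase, 1 was at least 2-fold higher in GIP-GFP and 2 at least 2-fold lower, with a median of -0.31. The kinase gene Pdk4 had the highest ratio. This kinase, which shuts pyruvate dehydrogenase during fat use, stood at 422 in GIP-GFP against 42.0 in Ngn3-TOMATO, with 35.1 in Ngn3-negative (3.30, 3.23 to 3.37). Pdk3, a second kinase gene, was lower at 41.8 and 137 (-1.69, -1.82 to -1.55), and Pdk1 and Pdk2 were within 2-fold. The phosphatase gene Pdp1 was lower too (-1.11), but at -0.60 by its most abundant transcript. Retinol carriers were also higher: Rbp4, the carrier of blood plasma, at 2373 and 487 with 9.03 in Ngn3-negative (2.28, 2.24 to 2.33), and Rbp2, the enterocyte form, at 3036 and 1147 with 4707 (1.40, 1.36 to 1.44). Over 12 retinoid genes the median was 0.01. All 40 nuclear genes of oxidative phosphorylation were within 2-fold, against 83.2% of all genes compared. Their median was 0.08, against 0.08 for all genes.

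The highest ratios outside these lists belonged to genes of mixed function. Alpl, for tissue-nonspecific alkaline phosphatase, stood at 242 in GIP-GFP against 15.7 in Ngn3-TOMATO, with 0.428 in Ngn3-negative (3.86, 3.74 to 3.98). Gatm, for the first enzyme of creatine synthesis, was at 259.7, 23.8 and 1.25 (3.40, 3.29 to 3.51). The peptide hormone subunit gene Inhbb, for the beta B chain of inhibin and activin, was at 48.3, 4.17 and 0.110 (3.25, 3.08 to 3.43). Fam167a was at 342, 34.3 and 0.809 (3.28, 3.21 to 3.34). All 4 were at 1.25 or less in the tomato-negative cells.

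Further genes among the 30 highest were Padi2, for an enzyme that turns arginine into citrulline (3.68, 3.51 to 3.85), the actin bundling gene Pls3 (3.06, 2.95 to 3.17), the gene Arhgdig (3.13, 2.88 to 3.38) and AW551984 (3.05, 2.88 to 3.22). The highest of all with an interval was Ccdc42, a coiled-coil gene known from sperm, at 52.3 and 0.582 (5.08, 4.58 to 5.57), and the sperm acrosome gene Spaca1 was also in this set (3.12, 2.57 to 3.68). Slfn2, a Schlafen gene of immune cells, was at 58.0 in GIP-GFP against 3.64 in Ngn3-TOMATO, with 8.74 in Ngn3-negative (3.67, 3.42 to 3.92). Pcsk2os2 lies within Pcsk2, and the unstranded reads of this pair cannot be told apart. Some values need care. Sprr2b (4.37, 3.85 to 4.88) belongs to a family of near-identical copies, Gm9765 and 4930503B20Rik were read only on transcripts under 500 bases, 4930515L19Rik was at 11.9 and 0.214, and Diaph3 (3.26) rests mainly on a transcript of 552 bases. Pigs, at 3.15, drew 90.3% of its GIP-GFP value from transcripts under 500 bases and was at -0.18 without them. Ecel1, for a neuronal protease (3.43, 3.27 to 3.60), was at 1.76 without transcripts of status LOWDATA.

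**Figure D2:**
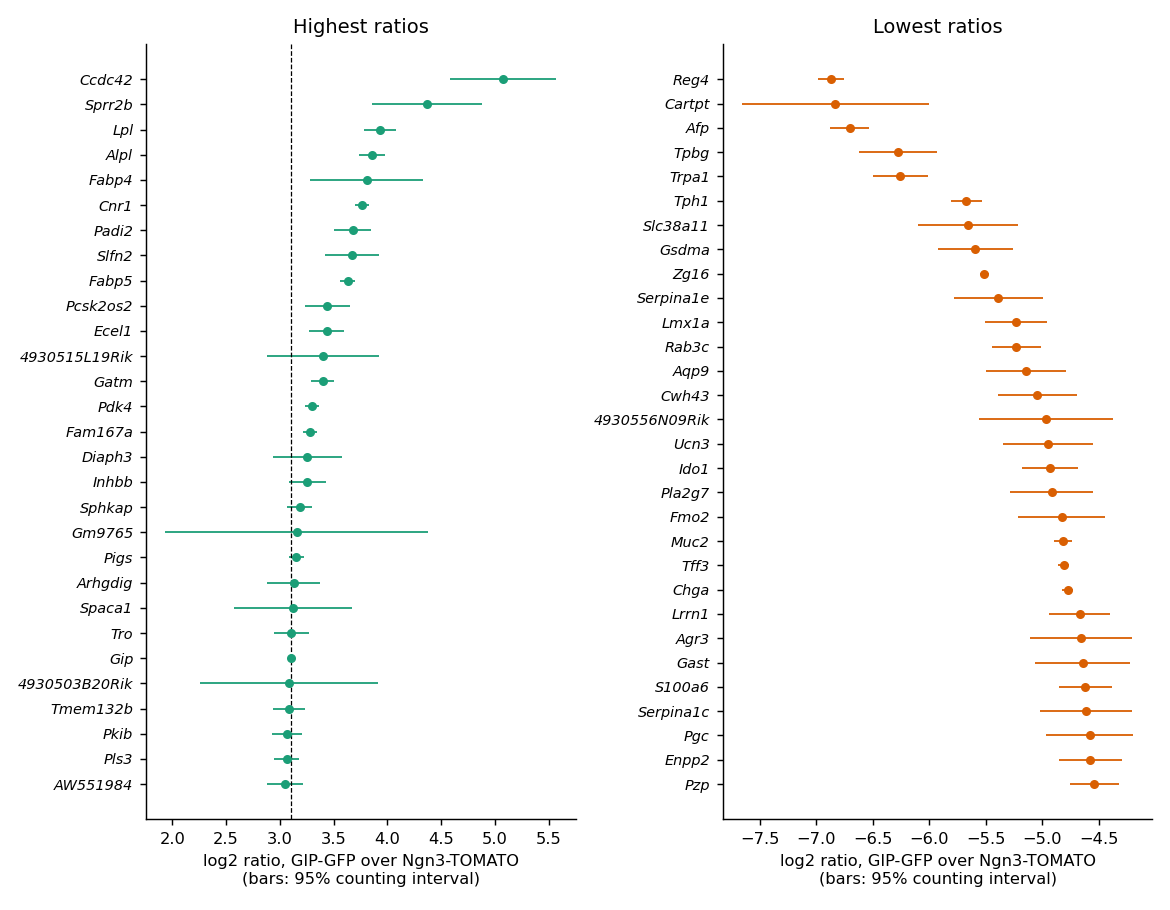
The highest (left) and lowest (right) log2 ratios of GIP-GFP to Ngn3-TOMATO among genes at 10 scaled FPKM or more in the higher library with an interval that leaves out 0, up to 30 a side. Points are the ratios after adding 1 scaled FPKM, bars are 95% counting intervals and the broken line marks Gip. Cnr1 and Fabp5 lie to the right of Gip, and Reg4 and Cartpt lie lowest.

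The lowest ratios outside the endocrine and goblet lists included genes for plasma proteins. Afp, for the fetal serum protein alpha-fetoprotein, stood at 16.6 in GIP-GFP against 1835 in Ngn3-TOMATO, with 15.2 in Ngn3-negative (-6.70, -6.88 to -6.53). Pzp, of the alpha-2-macroglobulin family, was at 3.25, 97.6 and 1.29 (-4.54, -4.75 to -4.32). The protease inhibitor genes Serpina1c (-4.61, -5.02 to -4.21) and Serpina1e (-5.39, -5.78 to -5.00) were lower too, but they are near-identical copies and the split among them is uncertain. Tpbg, for a membrane glycoprotein that dampens Wnt signals, was at 2.49, 269.5 and 5.41 (-6.28, -6.62 to -5.93). In Ngn3-negative as well, Afp, Pzp and Tpbg stood far below Ngn3-TOMATO.

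Transporter and enzyme genes filled most of the remaining places. They were the amino acid transporter gene Slc38a11 (-5.66, -6.10 to -5.21), the water and glycerol channel gene Aqp9 (-5.14, -5.50 to -4.79), Ido1 for a tryptophan-degrading enzyme (-4.93, -5.18 to -4.68), Pla2g7 for the enzyme that splits platelet-activating factor (-4.92, -5.28 to -4.55), Fmo2 (-4.83, -5.21 to -4.44) and Enpp2 for autotaxin (-4.57, -4.85 to -4.30). Ido1 was at 10.9 in GIP-GFP against 361 in Ngn3-TOMATO, with 74.5 in Ngn3-negative. Gsdma, a gasdermin gene, was at 1.28 and 109, and Pgc, for a gastric pepsinogen, at 5.74 and 160.3 with 8.76 in Ngn3-negative. Lrrn1 (-4.67, -4.94 to -4.40), Cwh43 (-5.04, -5.39 to -4.69), 4930556N09Rik (-4.97, -5.56 to -4.37) the calcium-binding protein gene S100a6 (-4.62, -4.85 to -4.39) and the disulfide isomerase gene Agr3 (-4.66, -5.11 to -4.21) completed the set with the endocrine, goblet and granule genes given elsewhere.

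Goblet, Paneth and tuft cell genes were lower in GIP-GFP almost throughout. Of 20 goblet genes 18 were at least 2-fold lower and none at least 2-fold higher, with a median of -3.80. One of them, Tpsg1, was listed at 0 in GIP-GFP and at 172 in Ngn3-TOMATO, and it overlaps Cacna1h. Zg16 stood at 1956 in GIP-GFP against 89352 in Ngn3-TOMATO, with 15681 in Ngn3-negative (-5.51, -5.55 to -5.47). Tff3 was at 2089.9, 58559 and 10280.4 (-4.81, -4.86 to -4.76), and the gel-forming mucin gene Muc2 at 248, 7006 and 1407 (-4.81, -4.89 to -4.73). GIP-GFP was thus below both other libraries for the main goblet products. Fcgbp, another goblet gene, was dropped since it carried the status HIDATA (too many reads to quantify) in Ngn3-TOMATO. The summed goblet list was 6584 in GIP-GFP against 174148 in Ngn3-TOMATO, with 32552 in Ngn3-negative, which is 0.633%, 16.4% and 3.63% of the summed gene values. The goblet sums stand beside every endocrine ratio given here, and their part in those ratios was not tested.

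Of 17 Paneth cell genes 14 were at least 2-fold lower, with a median of -3.37. Lyz1, for the lysozyme of Paneth granules, was at 671 in GIP-GFP against 6939.6 in Ngn3-TOMATO, with 1164 in Ngn3-negative (-3.37, -3.41 to -3.33), and the defensin gene Defa24 at 1239, 15607 and 2795. Defensin genes are near copies of each other, so their split is uncertain. Lyz2, the myeloid lysozyme gene placed in the same list, was the member higher in GIP-GFP, at 10.5 against 4.43. Of 22 tuft cell genes 20 were at least 2-fold lower, with a median of -2.28. Dclk1, the usual tuft cell marker, was at 3.37, 29.99 and 14.6, and the tuft cell channel gene Trpm5 at 6.89, 49.8 and 25.4. The tuft list sums of 147, 747 and 406 were small in all 3 libraries.

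**Figure D3:**
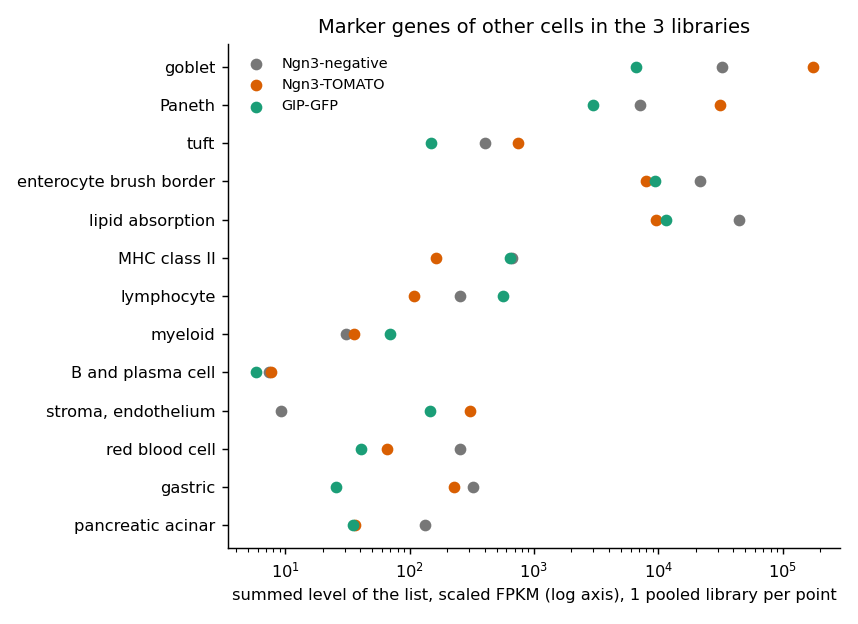
Summed level of marker lists of other cell types in the 3 pooled libraries, in scaled FPKM on a log axis, 1 point per library. Goblet, Paneth and tuft sums are lowest in GIP-GFP, enterocyte and lipid absorption sums are close in the 2 reporter libraries and higher in Ngn3-negative, and lymphocyte and MHC class II sums are lower in Ngn3-TOMATO than in GIP-GFP.

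Absorptive cell genes did not separate the reporter libraries. Of 34 brush border genes 5 were at least 2-fold higher in GIP-GFP and 1 at least 2-fold lower, with a median of 0.20. Over all genes compared, 8.09% were higher and 8.75% lower by as much. Sis, for sucrase-isomaltase, was at 627 in GIP-GFP against 726 in Ngn3-TOMATO, with 1279.9 in Ngn3-negative, and Alpi, for intestinal alkaline phosphatase, at 222, 218 and 1421. The neutral amino acid transporter gene Slc6a19 had the highest ratio of the list, at 928, 275 and 305 (1.75, 1.55 to 1.94), and it overlaps an antisense gene. Dpp4, for the protease that inactivates incretins, was at 217, 99.5 and 203 (1.12, 1.07 to 1.16), and the fructose transporter gene Slc2a5 at 77.2, 32.0 and 89.0 (1.24, 1.14 to 1.35). Krt20, a keratin gene of differentiated villus cells, was lower at 276 against 1425 (-2.36, -2.41 to -2.32).

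General epithelial genes were lower in part. Epcam was at 1085 and 1310.0 and Cdh1, for E-cadherin, at 449 and 486, both within 2-fold. The keratin genes Krt19 (666 against 2097) and Krt18 (422 against 1288) and the tight junction genes Cldn3 (306 against 803) and Cldn4 (375 against 1425) were at least 2-fold lower, as was Krt8 by a margin that 3 other settings removed. Cldn1, another claudin gene, was higher at 24.9 against 4.84 (2.15, 1.95 to 2.35). Of 23 stem cell genes 6 were at least 2-fold lower, among them Lgr5 (3.95 against 12.1), and 2 higher. Over all genes compared, 8.75% were lower and 8.09% higher by as much. The cell adhesion gene Cd44 led the higher stem cell genes at 402 in GIP-GFP against 54.5 in Ngn3-TOMATO, with 21.3 in Ngn3-negative (2.86, 2.73 to 2.99). Cell cycle genes were close, with 31 of 33 within 2-fold and Mki67 at 18.2 and 22.1. The 2 exceptions, Cdc20 and Kif20a, were listed at 0 in GIP-GFP.

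Immediate early genes, a class that responds to cell handling, were mostly lower in GIP-GFP. Of 25 compared, 18 were at least 2-fold lower and 2 at least 2-fold higher, with a median of -1.53. Fos was at 598 in GIP-GFP against 2017 in Ngn3-TOMATO, with 519.8 in Ngn3-negative (-1.75, -1.79 to -1.72), and the phosphatase gene Dusp1 at 70.3, 612 and 53.6 (-3.10, -3.21 to -2.99). Egr2, at 103, 22.3 and 2.10 (2.16, 2.03 to 2.29), and Nr4a2, at 227, 65.1 and 7.42 (1.79, 1.71 to 1.87), went the other way, although the related Nr4a1 was at 88.4 and 427 (-2.26, -2.35 to -2.17). Sorting conditions of the 2 reporter lines cannot be told apart from the cell types here. The unfolded protein response list lay at a median of 0.02, and 22 of 24 were within 2-fold, the lowest being Ern2, the stress sensor gene of goblet cells, at 3.01 against 79.0 (-4.32, -4.61 to -4.02).

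Lymphocyte and MHC class II genes were higher in GIP-GFP than in the CD45-negative Ngn3-TOMATO sort. Of 15 lymphocyte genes 13 were at least 2-fold higher and none lower, with a median of 1.89 and sums of 564 in GIP-GFP against 108 in Ngn3-TOMATO, with 252 in Ngn3-negative. Gzma, a cytotoxic granule protease gene, was at 242, 35.9 and 94.0 (2.72, 2.57 to 2.87), and the T cell receptor chain gene Cd3e at 11.8, 1.96 and 5.11 (2.11, 1.70 to 2.53). Ptprc, which encodes CD45, was at 6.50, 3.67 and 3.71, within 2-fold. The sum of the lymphocyte list was 0.0542% of the GIP-GFP gene values. Of 7 MHC class II genes 6 were at least 2-fold higher, with H2-Aa at 103, 16.8 and 99.1 and Cd74 at 317, 63.6 and 320.1, so that GIP-GFP and Ngn3-negative were alike and Ngn3-TOMATO lower. Of 16 myeloid genes 7 were compared, with 3 at least 2-fold higher, 1 at least 2-fold lower and a median of -0.45. The signaling adaptor genes Fcer1g (37.6 against 4.69) and Tyrobp (13.7 against 3.28) and Lyz2 were the higher ones, and the complement gene C1qa the lower (0.170 against 10.7). Cd14, Cd68 and Itgam were lower by less than 2-fold. What part such cells have in genes of like level was not tested.

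Markers of other tissues were mostly low. Of the 18 stromal, endothelial and muscle genes 3 reached 1 in either library, and of these Vim, which endocrine cells can also express, was at 144 in GIP-GFP and 295 in Ngn3-TOMATO. B and plasma cell genes summed to 5.79 and 7.71, red blood cell genes to 40.9 and 66.1, and pancreatic acinar genes to 34.9 and 36.5. Gastric genes were lower in GIP-GFP, with sums of 25.6 and 225 and Pgc at the head. Of 9 neuron and glia genes 3 were at least 2-fold higher and 1, Prph, at least 2-fold lower. Below 0 were 5 of the 9 ratios, and the list median was -0.22. The higher ones were Th and the neurofilament genes Nefl (2.61, 2.47 to 2.75) and Nefm (1.81, 1.71 to 1.90), while the neuronal tubulin gene Tubb3 was at 5.02 and 5.99. Housekeeping genes were all within 2-fold (15 genes, median -0.03), as were the 5 compared members of a Reg family list that does not hold Reg4 and the glutathione peroxidase genes (5).

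**Figure D4:**
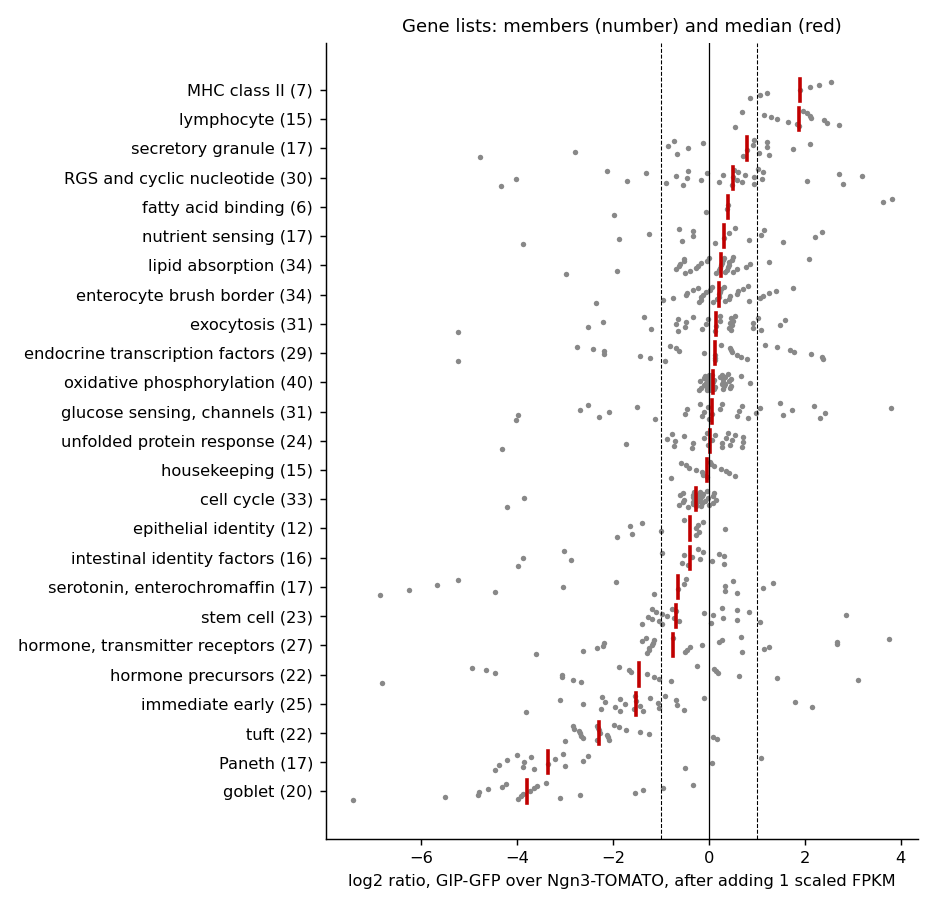
Log2 ratio of GIP-GFP to Ngn3-TOMATO for every compared member of 25 gene lists (grey points) and the list median (red bar), with the number of members in brackets. The solid line is equality and the broken lines are 2-fold, and members listed at 0 in 1 library are drawn at the ratio after adding 1 scaled FPKM. Goblet, Paneth and tuft medians lie far to the left, MHC class II and lymphocyte medians to the right, and oxidative phosphorylation and housekeeping genes close to 0.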

How the data were processed

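Messenger RNA of sorted cells was read in 3 pooled libraries, 1 per group, made with an unstranded kit. Per the submitters' processing notes, FastQC, TopHat 1.5.0 and Cufflinks were used on build mm10, with no Cufflinks version named in those notes. The deposited tables hold, per the file headers, for each of 59120 UCSC transcripts its coverage (the signal, mean read depth per base), its FPKM with a lower and an upper limit, and a status. Within each library the deposited FPKM equalled coverage times 1 fixed number, so the library term behind it is unknown.

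Transcripts were matched to GENCODE M21 symbols on the same genome by ends, length and overlap (54362 matched, 45904 of them sharing an end within 5 bases). Transcripts under 200 bases and mitochondrial ones were left out, and the rest were summed per symbol and divided by 8195.9 for all libraries, so that the mean total was 1000000. Genes at 1 or more in either library were compared as log2 ratios with a pseudocount of 1. Limits were taken as 2 standard errors, and values listed at 0 have no interval. Only the step that gives ratios and intervals was tested on simulated data. The matching, length filter, summing and scaling were not part of that test. Its noise was drawn from the deposited limits, so it does not check read assignment or differences between libraries. Python 3.11.15, pandas 2.3.3, numpy 2.4.6 and matplotlib 3.10.9 were used. Promoter sequences are RefSeq's (GRCm38.p6).

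The members, markers and 39 gene lists were chosen with earlier results of these data known. Named were the given markers, the 30 highest and 30 lowest ratios at 10 or more with an interval that leaves out 0, the list members farthest from 0 or most abundant, all members of lists of 8 genes or fewer, the 10 most abundant genes of each library, all hormone precursors and the nearest neighbours of Gip. Alternatives varied the pseudocount, filter, scaling, transcript length, transcript choice and symbol match. With 1 library per group no test was possible. A few genes that the rule names are not reported here.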

Additional observations from a re-analysis of the deposited data

How the results depend on the processing

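Across 11 settings chosen at the outset and 3 chosen after seeing the data, 187 of 229 named genes past 2-fold stayed past it in every setting that gave them a value. With a pseudocount of 0.1 in place of 1, 530 genes were at least 4-fold higher, 738 at least 4-fold lower and 187, Gip included here and in the next counts, at or above the ratio of Gip. With a pseudocount of 5 there were 604 genes at least 2-fold higher, 673 at least 2-fold lower, 116 at least 4-fold higher, 213 at least 4-fold lower and 18 at or above Gip. With only the most abundant transcript of each gene, 435 were at least 4-fold higher and 154 at or above Gip. Leaving out genes listed at 0 in 1 library, a setting added after seeing the data, left 25 at or above Gip. Of 229 named genes past 2-fold, 2 turned: Pigs was at -0.18 with transcripts of 500 bases or more and also without status LOWDATA (added after seeing the data), and Sv2c was at -0.017 by its most abundant transcript. In some setting 42 were under 2-fold, those 2 included, and the cause was not tested. Higher genes made up 48.0% of 2-fold differences, 50.02% with equal totals, 49.4% with equal totals without the 20 most abundant genes and 43.6% under the median ratio. The medians of the exocytosis, channel, retinoid, unfolded protein, oxidative phosphorylation, myeloid, neuron, pancreatic, Reg, sex-linked, housekeeping and pyruvate dehydrogenase lists changed sign in 1 to 6 settings, and no others did. Transcript shares were computed at 1 setting. No paired analysis was possible because each group is 1 pooled library, and for the same reason no replicate could be left out. Depth limits the low genes: at 1 to 10 scaled FPKM the counting error was 27.5% in GIP-GFP.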

Other observations

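A listed 0 was not always a low gene. Among the compared genes, 39 stood at 20 or more in 1 reporter library and were listed at 0 in the other, 16 of them at 0 in GIP-GFP and 23 at 0 in Ngn3-TOMATO. The span of 25 of the 39 overlapped another compared gene. Psd was at 75.1 in GIP-GFP and listed at 0 in Ngn3-TOMATO, whereas the adjoining Nfkb2 was listed at 0 in GIP-GFP and at 56.0 in Ngn3-TOMATO. Chchd1, a mitochondrial protein gene, was at 129.9 in GIP-GFP, listed at 0 in Ngn3-TOMATO and at 159 in Ngn3-negative. The insulin gene Ins2 was at 55.3 in Ngn3-TOMATO and listed at 0 in both other libraries.

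Transcript use within a gene was compared for 4187 genes with 2 or more transcripts and at 20 scaled FPKM or more in both libraries. In 174 of them (4.16%) the share of a transcript differed by 50 percentage points or more. The leading transcript differed between the libraries in 170, and in 57 the 2 leading transcripts shared both ends and differed by 10 bases or fewer in length. In Abcf2, for instance, a transcript of 2573 bases held 89.7% of the gene in GIP-GFP and 0% in Ngn3-TOMATO, where one of 2570 bases held 100%. How far such pairs reflect read assignment was not tested.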
